A study of Caenorhabditis elegans with 6 samples.

Results

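The centre of chromosome V of the nematode Caenorhabditis elegans was profiled by DamID for contact with EMR-1, the worm's emerin. The region runs over chrV:5900001-16550000 in build ce11. It spans 10.65 Mb, which is 50.9% of the chromosome and 10.6% of the genome on chromosomes I to V and X. Its members were chosen by position alone: the 10-kb bins lying wholly inside these bounds with at least 60 reads over the 6 libraries. Of 1065 possible bins, 1057 were listed and 1054 passed the read minimum, out of 9914 bins that passed genome-wide. At 2 kb, 4675 of the 5033 listed bins passed, out of 41117 genome-wide. The median read sum was 6613 reads per 10-kb bin in the centre and 6255.5 over all bins. Just inside the bounds, the leftmost bin had a mean log2 ratio of 3.31 and the rightmost bin one of -2.52. Just outside, the neighbouring bins stood at 2.36 on the left and 0.94 on the right.

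Each C. elegans chromosome has a gene-dense centre with little meiotic recombination between arms that recombine more and carry more repeats and more histone H3 lysine 9 methylation. The arms are known to lie near the nuclear envelope, while the centres reach further into the nucleus. EMR-1 is a LEM-domain protein of the inner nuclear membrane that binds lamin and the chromatin factor BAF-1. In DamID, a bacterial methyltransferase, Dam, marks adenine in GATC sequences near its fusion partner, and DNA cut at the marks is amplified before sequencing. Dam fused to GFP is not held at the envelope, and serves as the control for how easily Dam reaches a sequence. Chromosome V is known for its large clusters of chemoreceptor genes, which encode the receptors with which worms sense odours and other chemicals.

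The 6 libraries fell into 2 groups of 3: Dam::EMR-1 from strain BN1470 and GFP::Dam from strain BN1465, both with the genotype given as WT. All were genomic DNA from embryos bleached out of adults that had grown for 72 h at 20 °C on bacteria without Dam methylation, with 4000 adults per strain, 200 ng of DNA and 24 PCR cycles. EMS, the founder blastomere of the gut and of part of the mesoderm, is the cell type given for all 6. The labels give no embryo age, and they do not say what drives either fusion or whether the replicates came from separate cultures. Strain and fusion cannot be told apart, and the p-values measure the spread between these libraries, which may be technical. Those from limma also draw on the spread of the other entries in the same fit, not on an entry's own replicates alone. In some fits named below they rest on the pooled spread and do not measure an entry's own. The tables hold DNA reads, so the EMS label could not be checked against the expression of marker genes.

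The libraries held between 15719682 and 22407988 reads. The unit of the results is the deposited log2 ratio of Dam::EMR-1 over GFP::Dam, with 3 ratios per bin from libraries of the same number. The direction is an assumption: no header names the numerator, which was read as Dam::EMR-1 because the tables carry that protein's name and DamID ratios usually take this form. Each deposited ratio column is centred close to 0 over all bins, so a ratio of 0 is the genome's average and not an absolute level. Scaling by total reads instead raised every 10-kb ratio by 0.60 on average, and signs near 0 depend on that choice. A bin or gene was called enriched or depleted where limma gave an adjusted p under 0.05 over the whole table.

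The V centre stood close to the genome's average, far below its own arms and above the centres of the other chromosomes. Its mean ratio over bins was 0.05, -0.43 and -0.01 in replicates 1, 2 and 3, a mean of -0.13 ± 0.26 (SD, n = 3). The left arm stood at 1.51, 1.49 and 1.36, and the right arm at 2.30, 2.51 and 1.98. Every replicate of either arm lay above every replicate of the centre. The log2 difference of the centre to the left arm was -1.58 ± 0.29 (SD, n = 3), with an adjusted p of 2.0e-04 in limma. Against the right arm the difference was -2.39 ± 0.49 (SD, n = 3; adjusted p = 1.0e-04). The exact sign-flip test gave p = 0.25 for each, the smallest that 3 replicates allow. All 17 differences between segments in that fit were called. The 70.6% called lower were each chromosome's centre minus its arms, and the 29.4% called higher the V centre minus the other centres. These shares are thus no background for the V centre. A centre below its arms was not peculiar to V. Against left and right arm the difference was -2.21 and -2.46 on I, -2.85 and -2.54 on II and -3.24 and -2.18 on III. It was -1.32 and -2.65 on IV and -0.43 and -0.56 on X.

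The centres of the other chromosomes gave the comparison at matched position. The centre of chromosome III was lowest, at -2.18, -2.16 and -1.80. The V centre exceeded it by 1.92 ± 0.27 (SD, n = 3), with an adjusted p of 1.0e-04 in limma. Its excess was 1.49 ± 0.27 over chromosome I and 1.42 ± 0.21 over chromosome II, with an adjusted p of 2.0e-04 for each, and all 3 replicates were above 0 in each case. The centres of chromosomes X and IV came nearer. The V centre exceeded that of X by 0.65, 0.62 and 0.66, a mean of 0.64 ± 0.02 (SD, n = 3; adjusted p = 0.0044). It exceeded that of IV by 0.49, 0.16 and 0.49, a mean of 0.38 ± 0.19 (SD, n = 3; adjusted p = 0.047).

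The differences to III, IV and X depended on the replicates or on how reads were combined. Without replicate 1 the difference to IV was 0.32 (adjusted p = 0.299) and that to X 0.64 (adjusted p = 0.0609), and without replicate 3 the difference to IV was 0.32 (adjusted p = 0.163). When reads were summed per segment in place of averaging bins, the V centre was no longer above III (-0.058, adjusted p = 0.574) or IV (-0.027, adjusted p = 0.778). With the 1% of bins that hold the most reads left out of those sums, the differences were 0.82 to III and 0.24 to IV, with adjusted p of 3.4e-09 and 0.026 in limma. That fit gave both the same standard error, 0.102, so its p-values do not measure the spread of a single difference.

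**Figure D1:**
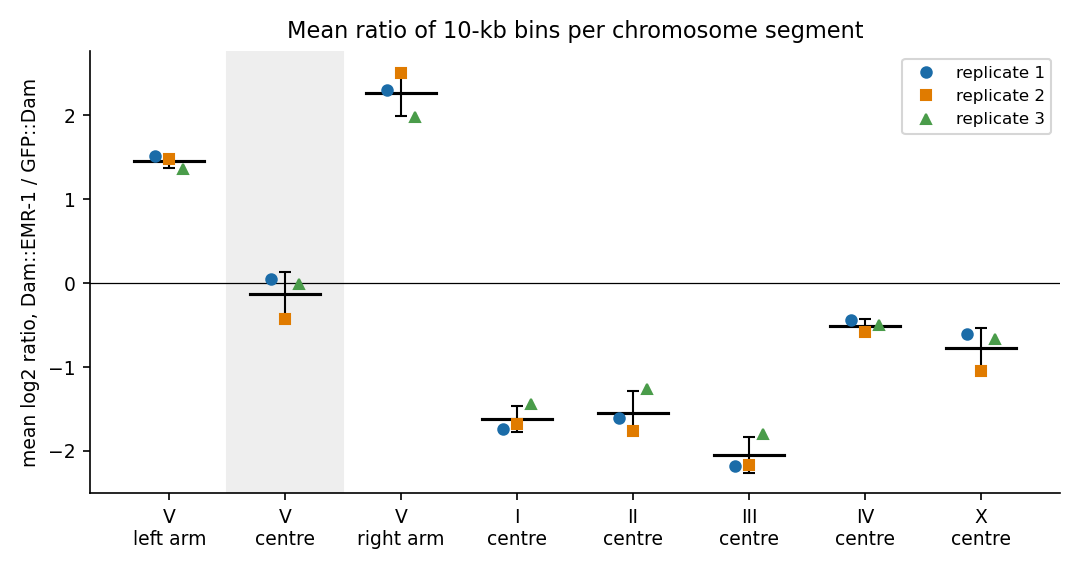
Mean log2 ratio of 10-kb bins (y axis) in the V centre (shaded), the V arms and the centres of the other chromosomes. Points are the 3 replicates, lines the mean and bars the SD; the V centre lies between its arms, at 1.45 and 2.26, and the other centres, at -2.05 to -0.51.

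Reads per library showed how each group contributed. Whole reads could be recovered from the ratios and read sums, so the centre was compared with the V arms within each library as mean log2(CPM + 1) over bins. In the GFP::Dam libraries the centre exceeded the arms by 1.27, 1.37 and 1.24. In the Dam::EMR-1 libraries it was below them, with differences of -0.35, -0.69 and -0.27. The groups did not overlap, and their means, 1.29 ± 0.07 and -0.44 ± 0.23 (SD, n = 3 each), differed by -1.73 with an exact two-sided permutation p of 0.1, the smallest that 3 against 3 libraries allow. The reads of each library were recovered from the ratio, so they rest on the assumed numerator: with the direction turned, the 1.29 and the -0.44 would exchange groups.

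As a share of all reads, the V centre held 12.08%, 12.34% and 11.99% in GFP::Dam. It held 8.79%, 7.86% and 9.07% in Dam::EMR-1. The former shares were all above the 10.6% of the genome that the region occupies and the latter all below it, and they too would exchange groups with the direction turned. The means were 8.57% ± 0.635 and 12.1% ± 0.180 (SD, n = 3 each), a difference of -3.56 percentage points with an exact permutation p of 0.1. Counting error was small beside this: the 95% Wilson interval of the lowest share ran from 7.85% to 7.87%. Such intervals cover counting error only, since PCR copies are not independent molecules.

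**Figure D2:**
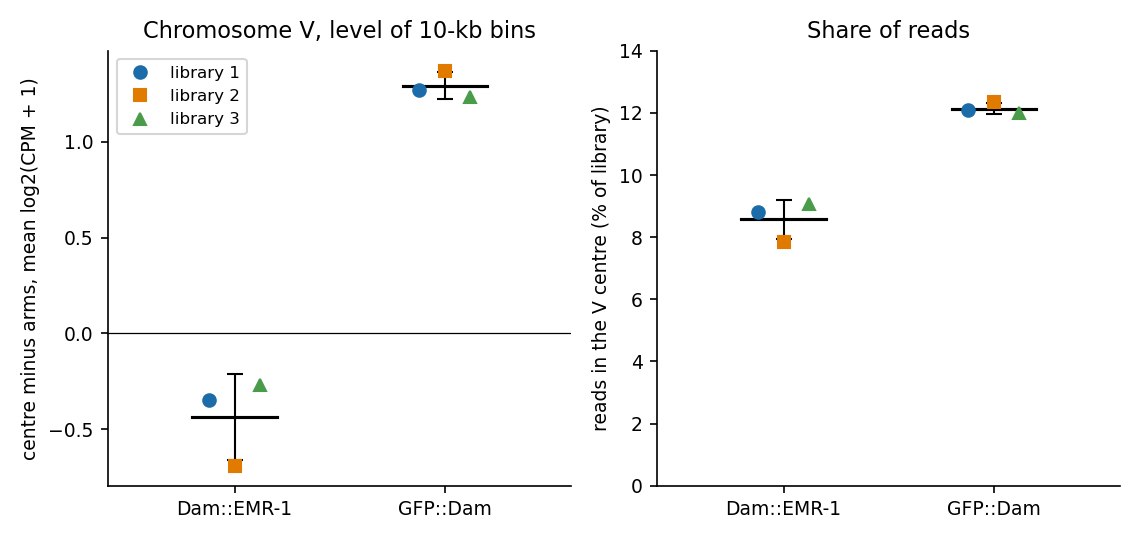
Left, mean log2(CPM + 1) of 10-kb bins in the V centre minus that in the V arms for each library; right, the share of each library's reads in the V centre (%). Points are libraries, lines means and bars SD (n = 3); the 3 GFP::Dam libraries lie above the 3 Dam::EMR-1 libraries in both panels.

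Along the centre the ratio was lowest near the middle and rose towards the right border. The region was divided into 11 windows of about 1 Mb. In the limma fit of windows the adjusted p followed the size of the mean whatever its SD. A mean of 0.66 ± 0.06 had 9.6e-05 and one of -0.67 ± 0.33 had 9.1e-05. These p-values therefore do not measure the spread of a single window. The lowest, chrV:11710001-12680000, stood at -1.31, -1.97 and -0.98, a mean of -1.42 ± 0.50 (SD, n = 3; adjusted p = 3.3e-15 in limma). It held 9 chemoreceptor genes among 224 protein-coding genes. The highest, chrV:15590001-16550000 next to the right arm, stood at 2.36, 2.11 and 2.03, a mean of 2.17 ± 0.18 (SD, n = 3; adjusted p = 1.7e-28). It held 100 chemoreceptor genes among 300 protein-coding genes, and 58.3% of its bins were enriched. The replicates of these windows did not overlap, which their choice as the lowest and the highest largely fixes.

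The other windows fell between these. The leftmost, chrV:5900001-6870000, stood at -0.81 ± 0.33 (SD, n = 3), and the one beside it at 0.66 ± 0.06. The third was at 0.22 ± 0.24 and was not called, with an adjusted p of 0.18 in limma. The 6 windows from chrV:8810001-9780000 to chrV:13650001-14620000 had means between -1.42 and -0.39 and were all called lower than 0. The tenth, chrV:14620001-15590000, was at 0.62 ± 0.37. In all, 3 windows of the centre were called higher and 7 lower, where 43% and 44% of the 100 windows of the genome were. Scaling by total reads left 1 of the 7 called lower, the window at -1.42 with the authors' centring. Without replicate 2 the third window was called at 0.36 (adjusted p = 0.0307), and the windows at -0.49 and -0.39 were not, at -0.24 (adjusted p = 0.138) and -0.27 (adjusted p = 0.107). The latter was also not called without replicate 1, at -0.44 (adjusted p = 0.0691).

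Differences between neighbouring windows do not depend on the centring. They were tested in 1 fit over 94 neighbouring pairs, of which 41.5% were called higher and 39.4% lower. That fit gave the steps of chromosome V the same standard error, 0.157, so its p-values do not measure the spread of a single step. At the left border the ratio fell by 1.31 from the last window of the arm to the leftmost window of the centre (replicates -1.49, -1.47 and -0.97; adjusted p = 5.9e-14 in limma). It then rose by 1.47 ± 0.29 (SD, n = 3) into the second window. At the right end it climbed over successive windows: by 1.01 ± 0.17 into the tenth, 1.54 ± 0.34 into the eleventh and 1.37 ± 0.38 into the right arm, each with an adjusted p of 2.6e-09 or less. The right arm's first window was the highest of the chromosome, at 3.54 ± 0.38. On the left the ratio also changed over several windows: it fell by 2.07 ± 0.24 inside the arm, from a window at 2.36 to the next at 0.29 (SD, n = 3; adjusted p = 1.7e-27 in limma), a larger fall than at the border. The second window of the centre, at 0.66, stood above the last window of the left arm, at 0.50. In the middle, the steps between the fourth and the fifth window (0.07, adjusted p = 0.66) and between the fifth and the sixth (0.10, adjusted p = 0.56) were within the spread. The step of 0.35 from the eighth to the ninth window was called with all replicates and not without any 1 of them, with adjusted p from 0.0627 to 0.138.

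**Figure D3:**
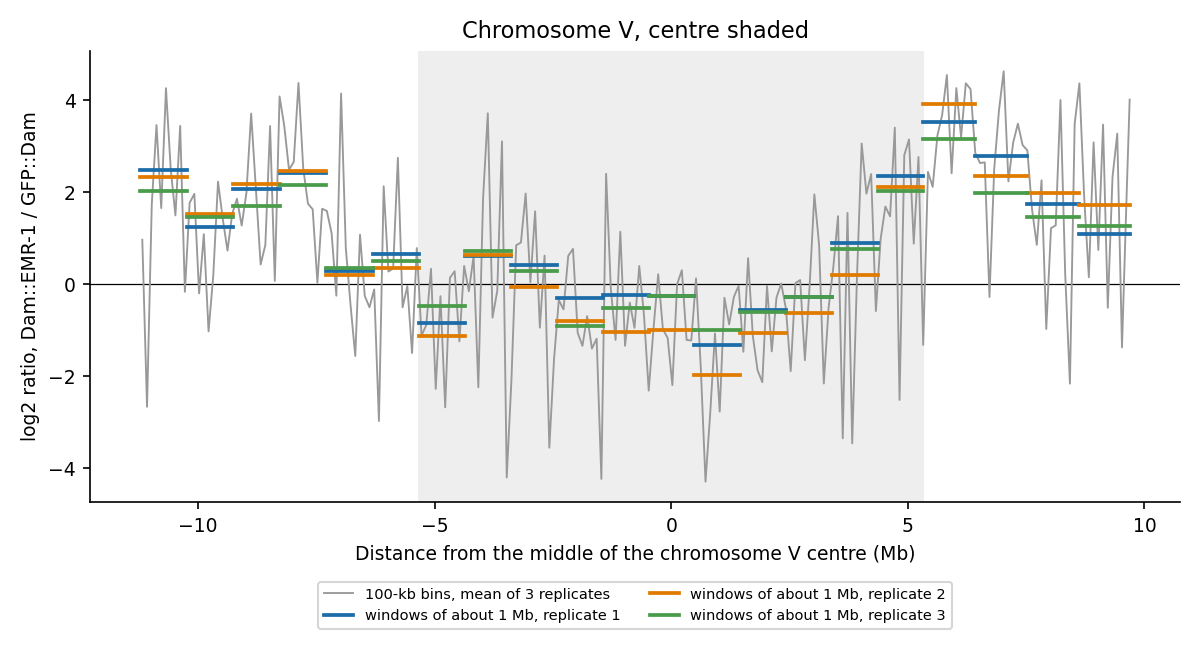
Log2 ratio (y axis) along chromosome V against the distance from the middle of its centre (x axis, Mb), with the centre shaded. The grey line is the mean of 3 replicates in 100-kb bins and the coloured lines are the means of windows of about 1 Mb in each replicate; the lowest window, at -1.42, lies just right of the middle and the highest of the chromosome, at 3.54, just beyond the right border.

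At the scale of single bins the centre was a mixture, with nearly as many enriched as depleted bins. Of its 1054 bins, 291 were enriched (27.6%), where 28.4% of all bins in the genome were, and 287 were depleted (27.2%), where 25.2% of all bins were. These shares were close to those of the genome as a whole. The median bin stood at 0.16, and the middle 50% of bins ranged from -2.34 to 2.37. With total-read scaling 368 bins were enriched and 219 depleted, so that 62.7% of the called bins were enriched in place of 50.3%; over the genome the same shares were 63.0% and 52.9%. Without replicates 1, 2 and 3 the counts of enriched bins ranged from 157 to 207, and the 291 fell to 184 without replicate 1 and to 157 without replicate 3. Those of depleted bins ranged from 197 to 202. With an adjusted p of 0.01 in limma, 125 bins were enriched and 153 depleted. The near balance of the 2 counts thus depends on the threshold, the scaling and the replicates. The authors' deposited table listed 335 of 1049 bins above 0 and 314 below 0 at its adjusted p under 0.05, where 31.7% and 29.6% of all its bins were.

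By comparison, the arms of V were one-sided. Enriched bins made up 46.7% of the left arm and 53.5% of the right arm, and depleted bins 11.1% and 7.0%. The centres of chromosomes I, II and III leaned the other way, with 13.99% to 15.99% enriched and 40.95% to 45.1% depleted. The V centre lay between, closest to that of IV, with 23.3% enriched and 29.3% depleted.

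The reads behind the called bins differed in both groups of libraries. In the 290 enriched bins with known reads, the median level was 125, 105 and 125 CPM in Dam::EMR-1 and 7.07, 6.54 and 10.2 CPM in GFP::Dam. In the 285 depleted bins it was 15.9, 14.9 and 21.4 CPM in Dam::EMR-1 and 161, 169 and 162 CPM in GFP::Dam. Bins that were not called lay between, at 47.8 to 56.2 CPM and 26.5 to 33.9 CPM. Across 1045 bins the ratio followed the GFP::Dam level more closely (Spearman rho = -0.85) than the Dam::EMR-1 level (rho = 0.64). Both levels are parts of the ratio, so these correlations are descriptions of which part varied more, and with the direction turned the -0.85 and the 0.64 would exchange libraries and signs.

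The 2-kb bins hold the same reads as the 10-kb bins around them, so their sign largely follows from the 10-kb call and is given as a description. Of the 1301 2-kb bins inside enriched 10-kb bins, 96.7% had a ratio above 0, with a median of 3.70, and 45.1% were called at 2 kb. Of the 1299 inside depleted bins, 11.24% did, with a median of -4.33, and 49.8% were called. Neighbouring 2-kb bins had similar ratios (Pearson r = 0.74 over 4247 pairs), and the likeness faded over 10 kb (r = 0.38), 20 kb (r = 0.23) and 50 kb (r = 0.08). Tested on their own, 764 of the 4675 2-kb bins were enriched and 779 depleted, shares of 16.3% and 16.7% where the genome had 19.2% and 17.2%. With total-read scaling the counts were 1098 and 685. Leaving out replicates 1, 2 and 3 in turn left 190, 164 and 200 enriched and 401, 333 and 402 depleted 2-kb bins.

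Runs of at least 2 neighbouring bins called in the same direction formed 60 enriched and 70 depleted domains. The enriched domains had a median length of 30 kb, reached 100 kb and covered 20.7% of the centre. The depleted ones had a median of 20 kb, reached 70 kb and covered 19.1%. In the left arm enriched domains covered 40.7% and reached 200 kb, and in the right arm 45.5%, while depleted domains covered 6.1% and 3.0%. In the other centres enriched domains covered 8.0% to 17.3% and depleted ones 20.7% to 38.1%. Enriched and depleted domains of the V centre were interspersed: of 129 neighbouring pairs, 61 were of opposite direction and the rest of the same direction. Of the 61, 17 lay within 10 kb of each other and 9 touched.

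The 2 longest enriched domains were clusters of chemoreceptor genes with other large families. The domain at chrV:7330001-7430000 had ratios of 5.13, 4.64 and 4.26, a mean of 4.67 ± 0.43 (SD, n = 3). Its summed level was 2000, 2132 and 2226 CPM in the Dam::EMR-1 libraries and 62.8, 72.9 and 116 CPM in the GFP::Dam libraries. The groups did not overlap, which the choice of called bins largely fixes here and in the domains below. It overlapped 43 protein-coding genes, 17 of them chemoreceptor genes, among them srh-187, srx-56 and srw-67. It also held the nuclear hormone receptor genes nhr-147, nhr-148, nhr-149 and nhr-263, and cyp-35A1 and cyp-35A2, cytochromes P450 that respond to foreign chemicals. The domain at chrV:15920001-16020000 had ratios of 4.66, 4.03 and 4.01, with 16 chemoreceptor genes among 33.

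The next longest, of 90 and 80 kb, included chrV:15200001-15290000 (3.51 ± 0.29), chrV:7600001-7680000 (3.65 ± 0.47) and chrV:8050001-8130000 (3.64 ± 0.35; SD, n = 3 each), with 19, 7 and 11 chemoreceptor genes. All 11 in the last were str genes, among them str-90 and str-146. In all, 35 of the 60 enriched domains overlapped a chemoreceptor gene and together overlapped 226 of them. Of the 70 depleted domains 15 did, with 18 such genes. The other 25 enriched domains overlapped none.

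The 5 longest depleted domains were of 70 kb each. The domain at chrV:6450001-6520000 had ratios of -4.18, -4.90 and -3.95, a mean of -4.34 ± 0.49 (SD, n = 3). Its level was 95.8, 141 and 199 CPM in Dam::EMR-1 and 967, 1007 and 1060 CPM in GFP::Dam, with no overlap. It held unc-83, which encodes an outer nuclear membrane protein that moves nuclei; mdh-1, a malate dehydrogenase gene; and dpy-11, needed for body shape. As a gene, unc-83 stood at -5.03, -4.83 and -4.98, a mean of -4.95 ± 0.10 (SD, n = 3; adjusted p = 3.0e-05 in limma).

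The domain at chrV:7790001-7860000 (-4.23 ± 0.70) held xpo-1, an exportin gene at -4.97 ± 0.82, and mig-6, a papilin gene of the extracellular matrix at -3.03 ± 0.79 (SD, n = 3 each). The domain at chrV:14790001-14860000 (-5.02 ± 1.75) held ret-1, a reticulon gene at -2.51 ± 0.38. The domain at chrV:12010001-12080000 (-4.81 ± 1.62) held pkc-1, a protein kinase C gene at -3.95 ± 0.97, and pold-1, a DNA polymerase delta gene at -4.23 ± 1.09. In all of these genes the 3 replicates were below 0. Reads per library were known for 5 of the 7 bins of the domain with pkc-1 and for all bins of the other 4.

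The last of these depleted domains, chrV:6200001-6270000 (-4.11 ± 1.05; SD, n = 3), began where a long gene ended. ttn-1, at chrV:6120909-6202632, encodes the giant muscle protein titin. Over its 170 GATC sites the gene stood at 2.74, 2.58 and 2.52, a mean of 2.61 ± 0.11 (SD, n = 3; adjusted p = 3.2e-04 in limma). Its bins from chrV:6170001 to chrV:6200000 were enriched at 5.55, 4.63 and 3.37. The bin that holds its end, chrV:6200001-6210000, stood at -1.35, -1.85 and -1.45, and the depleted run after it held rme-1, a gene of endocytic recycling at -3.12 ± 1.07, and mrck-1, a kinase gene at -3.05 ± 0.61. On the other side, the bins just before ttn-1 were depleted as well, with chrV:6100001-6110000 at -6.28, -7.97 and -8.12. The gene as a whole was thus high between low stretches on both sides, but not in every bin. Inside it, chrV:6160001-6170000 stood at -0.13, -0.72 and 0.80 and chrV:6140001-6150000 at 1.22 ± 1.59 (SD, n = 3), neither of them called.

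A second sharp change lay at the end of the enriched chemoreceptor domain at chrV:15920001-16020000. Its last bin stood at 6.06, 1.41 and 5.84, all above 0. The next bin, chrV:16020001-16030000, stood at -6.43, -3.92 and -2.21, all below 0. A little further, chrV:16040001-16050000, which holds the core histone genes his-1, his-2, his-3 and his-4, stood at -5.68, -6.49 and -5.85. Core histone genes are near-identical copies, and how reads that map to several places were treated is not given in the sources used here, so the values of single histone genes are uncertain.

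**Figure D4:**
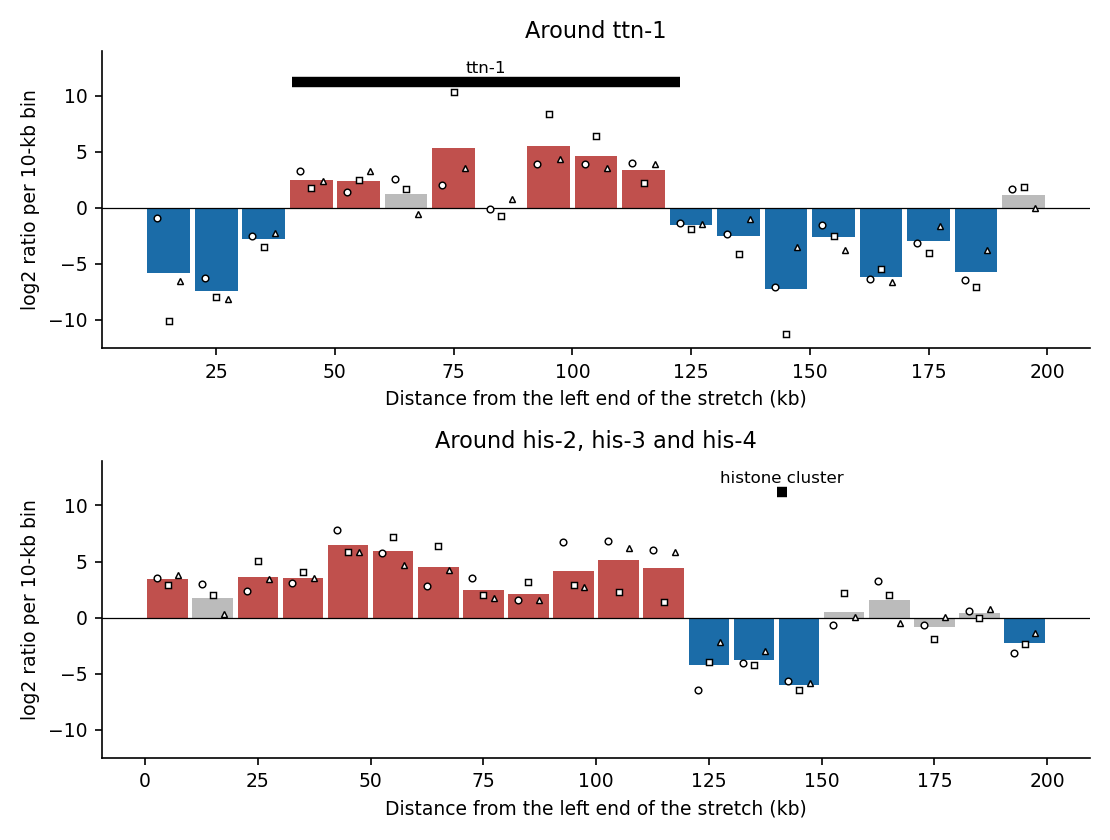
Log2 ratio per 10-kb bin (y axis) against the distance from the left end of 2 stretches of 200 kb (x axis, kb), around ttn-1 (top) and his-2, his-3 and his-4 (bottom). Bars are means of 3 replicates, red where enriched, blue where depleted and grey where not called, small points are the replicates and black bars at the top mark the genes; ttn-1, at 2.61 over its sites, lies between depleted bins.

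The most extreme bins of the centre had contents of different kinds. The 5 highest had means between 7.36 and 8.13, and 3 of them held a chemoreceptor gene. One of the others, chrV:14750001-14760000, held nspa-10 and stood at 402, 275 and 273 CPM in Dam::EMR-1 against 0.855, 0.246 and 6.87 CPM in GFP::Dam. The 5 lowest had means between -9.45 and -7.78. Of these, chrV:9330001-9340000 held coq-6, a gene of ubiquinone synthesis, and stood at 0.580, 0.509 and 0.288 CPM in Dam::EMR-1 against 91.2, 45.9 and 115 CPM in GFP::Dam. These bins were chosen as extremes among called bins, so the distance between the groups follows from the choice.

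Bins with chemoreceptor genes stood far above the other bins of the centre. The centre had such a gene in 252 bins, 23.9% of them, where the centres of chromosomes I to IV together had one in 4.6%. Those bins stood at 1.83, 1.46 and 1.59, a mean of 1.63 ± 0.19 (SD, n = 3), and 53.2% were enriched and 13.5% depleted. The other 802 bins stood at -0.51, -1.02 and -0.51, a mean of -0.68 ± 0.29, with 19.6% enriched and 31.5% depleted. The groups did not overlap in any replicate. The contrast between them was 2.30 ± 0.19 (SD, n = 3; adjusted p = 4.0e-22 in limma). Among the 32 contrasts of this kind in that fit, 62.5% were called higher and 25% lower. All had the same standard error there, 0.152, and some are differences of others. Its p-values therefore do not measure the spread of a single contrast.

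The contrast was not peculiar to the V centre. It was 2.43 ± 0.18 in the left arm, and the difference of -0.12 ± 0.30 to the centre was not called (adjusted p = 0.43 in limma). It was 1.45 ± 0.15 in the right arm, lower than in the centre by 0.85 ± 0.18 (adjusted p = 7.5e-07). It was 2.91 ± 0.38 in the centre of IV, a difference of -0.61 ± 0.46 (adjusted p = 2.2e-04), which was not called without replicate 3 (-0.55, adjusted p = 0.0551). Against the centre of II the difference was -0.29 ± 0.31 (adjusted p = 0.065), and it was called without replicate 2 (-0.46, adjusted p = 0.0241).

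Bins of the V centre without chemoreceptor genes stood near those of the centres of IV and X. With such bins alone, the V centre differed from that of IV by 0.21, -0.22 and 0.22, a mean of 0.070 ± 0.25 (SD, n = 3; adjusted p = 0.73 in limma). It differed from that of X by 0.11 ± 0.06 (adjusted p = 0.62). Against the centres of I, II and III the excess remained, at 0.97 ± 0.29, 1.01 ± 0.22 and 1.41 ± 0.27, with adjusted p of 3.1e-05 or less. Against its left and right arms the V centre remained lower, with differences of -1.31 ± 0.38 and -2.56 ± 0.53. In that fit the adjusted p followed the size of the difference whatever its SD. It therefore does not measure the spread of a single difference.

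Gene number went with the ratio in another way than in the centres of chromosomes I to IV, and in the same direction as in the V arms. In the V centre, bins with at least 5 protein-coding genes stood at 0.36, -0.23 and 0.18 and bins with 1 or 2 at -0.30, -0.76 and -0.20. In each replicate the former were higher, by 0.52 ± 0.14 on average (SD, n = 3; adjusted p = 0.0013 in limma). In the centres of I, II, III and IV the same contrast was -2.21 ± 0.27, -1.19 ± 0.03, -2.06 ± 0.30 and -1.04 ± 0.19. Tested directly, the contrast of the V centre exceeded theirs by 2.73, 1.71, 2.58 and 1.56, each with an adjusted p of 9.4e-15 or less. In the V arms the contrast was also above 0, at 0.74 ± 0.41 on the left and 1.78 ± 0.32 on the right. The difference of the V centre to the left arm, -0.21, was not called (adjusted p = 0.17 in limma). Its difference to the right arm was -1.26 (adjusted p = 2.0e-11).

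Without the bins that hold a chemoreceptor gene, the contrast in the V centre turned to -0.17, -0.52 and -0.34, a mean of -0.34 ± 0.18 (SD, n = 3; adjusted p = 0.048 in limma). It still differed from those of I, II, III and IV, by 1.87, 1.09, 1.77 and 0.93, with adjusted p of 0.0023 or less. The difference to X, 0.60 with all bins, was -0.066 without them (adjusted p = 0.60). Across the 1045 bins with known reads, the ratio hardly followed the number of genes (Spearman rho = 0.04) or of GATC sites (rho = -0.06), and followed the number of chemoreceptor genes (rho = 0.34).

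Sites inside genes were lower than sites between them. The 9720 GATC sites inside protein-coding genes of the centre averaged 0.09, -0.32 and -0.16, and the 4799 outside 0.76, 0.23 and 0.52. The difference was -0.67, -0.55 and -0.68, so it lay on the same side in all replicates. It was -0.31 ± 0.04 in the left arm and -0.12 ± 0.18 in the right arm (SD, n = 3 each). Whether it differs between centre and arms was not tested.

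The centre holds 2767 protein-coding genes, of which 2563 had at least 60 reads in their body and 500 bp on each side. Of these, 739 were enriched (28.8%), where 30.2% of all 18648 genes were, and 607 depleted (23.7%), where 27.2% of all were. In the V arms 1160 of 2024 genes were enriched (57.3%) and 171 depleted. The median gene stood at 0.56, against 0.31 over the genome and 2.60 in the V arms. The families below were chosen by gene symbol, and their counts are to be read against these shares.

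Chemoreceptor genes were the largest family and mostly enriched. Of 391 in the centre 363 were measured, 213 of them enriched and 8 depleted, with a median of 2.68. Their mean was 2.64, 2.21 and 2.22 in the 3 replicates, all above the median gene. In the V arms 345 of 438 were enriched (78.8%, where 57.3% of all arm genes were), with a median of 3.54. Over the genome 818 of 1198 were enriched. Relative to the arms, the family's mean in the centre differed by -0.88, -1.12 and -0.91 in the 3 replicates, so it was lower in all of them. Every subfamily with at least 10 measured members had a median above 1, from 1.07 in 10 srj genes to 3.29 in 28 srw genes, of which 22 were enriched and 0 depleted. The largest, 81 str genes, had 50 enriched and 2 depleted, the lowest at -3.002. Many chemoreceptor genes have close copies, so the split of reads among single members is uncertain.

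Other families with a median above that of all genes of the centre had different roles. C-type lectins, secreted sugar-binding proteins with roles in defence, had 17 of 30 enriched and 1 depleted, with a median of 2.47. The irg, irld and oac genes, among them infection-response genes and acyltransferase-like genes, had 14 of 19 enriched and 1 depleted, with a median of 2.64. Cuticle collagens of the col series had 9 of 22 enriched and 1 depleted. Receptor guanylyl cyclases (gcy), used by sensory neurons, had 5 of 8 enriched and 1 depleted. Cytochromes P450 had 6 of 13 enriched and 2 depleted. Over the genome, in the same order of families, 161 of 231, 91 of 117, 55 of 143, 21 of 31 and 35 of 72 were enriched. The medians of these families in the centre ran from 1.54 to 2.64, and the families were grouped here after their values were seen. Further families also lay above the median of all genes. They were glutathione S-transferases (2.93 over 4 genes), F-box genes (1.56 over 26), twk potassium channels (0.91 over 9) and the 1 measured nuclear pore gene (0.66).

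Nuclear hormone receptor genes did not share this level. Their median over 72 measured members was 0.51, near that of all genes, with 20 members enriched and 12 depleted. In the arms 50 of 92 were enriched (54.3%), with a median of 2.19. That is near the 57.3% of all arm genes, whose median was 2.60. Their mean in the centre less that in the arms was -1.85, -1.37 and -1.35. Single members lay far apart. At the high end nhr-148 stood at 5.50 ± 0.34 (SD, n = 3; adjusted p = 2.3e-04 in limma), a gene named after its value was seen. At the low end nhr-232 stood at -6.32, -6.63 and -4.71 (adjusted p = 3.7e-05 in limma), and nhr-135 at -4.58 ± 0.70 (SD, n = 3). UDP-glucuronosyltransferases, which conjugate foreign compounds, were evenly split, with 4 of 23 enriched and 5 depleted. F-box genes had 6 of 26 enriched and 1 depleted, with a median of 1.56, above that of all genes. Of these, fbxa-147 stood at 4.29 ± 2.20 and fbxa-199 at -6.84 ± 0.27.

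Histone, proteasome and ribosomal protein genes were low. They were low over the genome too, where 31 of 36 histone and 20 of 30 proteasome genes were depleted. So were 68 of 76 cytosolic and 30 of 54 mitochondrial ribosomal protein genes. Of 27 histone genes in the centre 14 were measured, 13 of them depleted and 0 enriched, with a median of -5.92. The lowest, his-3 at chrV:16040808-16041191, stood at -11.13, -10.22 and -8.37 (adjusted p = 4.7e-06 in limma). The remaining 13 histone genes were not measured here, and near-identical copies limit all of these values. All 3 measured proteasome subunit genes were depleted, with pas-2 at -6.004 ± 1.93 and rpt-1 at -5.54 ± 0.87 (SD, n = 3 each). Of 4 cytosolic ribosomal protein genes 3 were depleted, with rpl-39 at -6.67 ± 0.58 and rpl-38 at -5.76 ± 0.23. Of 4 mitochondrial ones 1 was, mrps-2 at -3.24 ± 1.82, and it was not called without replicate 1. All 3 measured MATH-domain genes were depleted, while over the genome 47 of 70 were enriched.

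**Figure D5:**
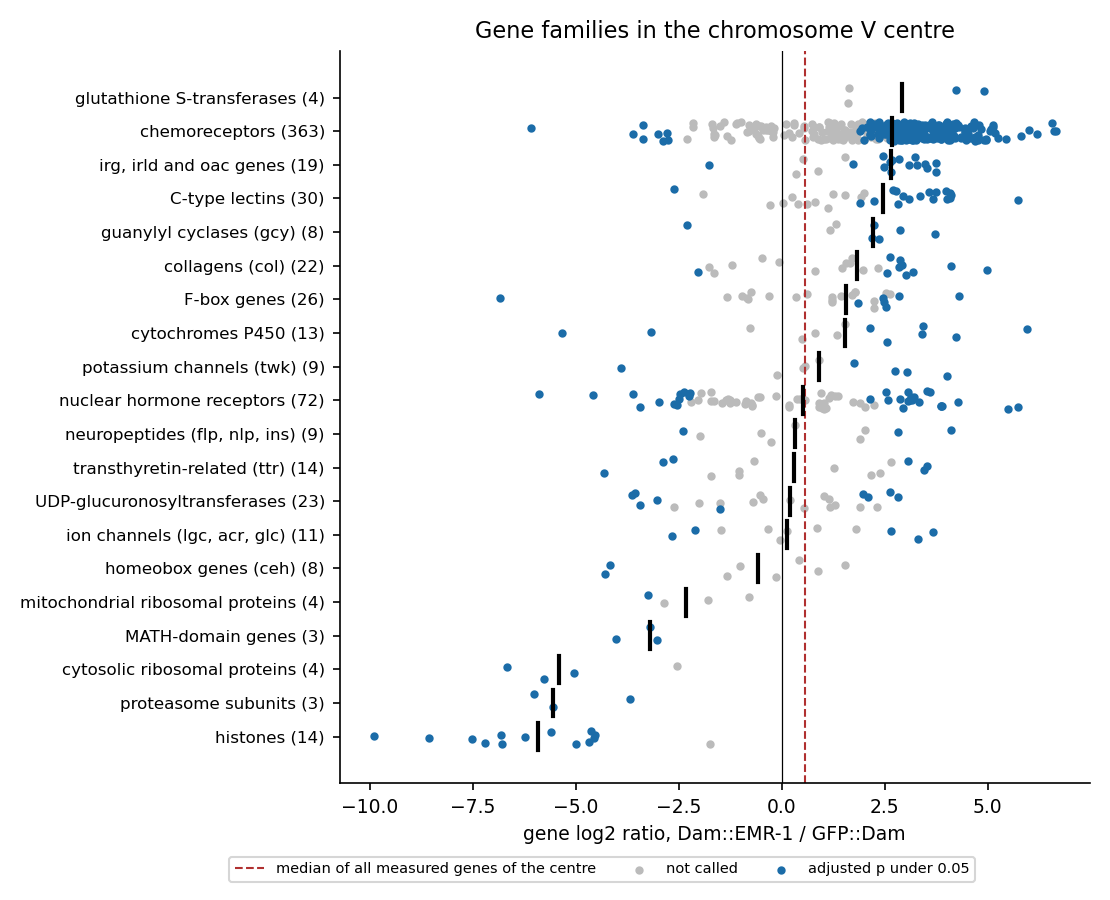
Log2 ratio of each measured gene (x axis) of the families in the V centre, with the number of genes in brackets. Points are genes, blue where called and grey where not, black lines are family medians and the dashed line is the median of all measured genes of the centre, 0.56; medians run from -5.92 for histones to 2.93 for glutathione S-transferases.

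The genes with the strongest values came from some of the same families. Extremes were sought among called genes whose replicates share a sign and whose reads exceed the genome's median per gene; the highest were the chemoreceptor genes srsx-36 at 6.65 ± 0.72, srh-258 at 6.60 ± 0.60 and srd-27 at 6.56 ± 0.98 (SD, n = 3 each). Among the 10 highest were also the lectin gene clec-222 and the cytochrome gene cyp-35A1. The lowest, apart from 3 histone genes, were F56H9.2, T16G1.18, F09G2.2, chpf-1, mboa-2, act-2 and dpy-30. dpy-30, which encodes a subunit shared by histone H3 lysine 4 methyltransferase and dosage compensation complexes, stood at -7.34, -8.14 and -6.43. A shared sign of the 3 replicates was a condition of that choice.

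Of a hand-written list of regulators of early lineages, 4 lie in the centre, 3 of them depleted and 0 enriched. The list was low elsewhere too, with 18 of 22 members depleted over the genome and 5 of 6 in the V arms. end-1, at chrV:13985128-13987074, encodes a GATA factor that specifies the endoderm in a daughter of EMS. It stood at -4.81, -6.83 and -6.001, a mean of -5.88 ± 1.01 (SD, n = 3; adjusted p = 6.5e-05 in limma). end-3 nearby, a gene of the same kind with 3 sites and 297 reads, stood at 2.09, -2.16 and -3.02, with its replicates on both sides of 0, and was not called. It lies in the depleted domain chrV:14000001-14020000, whose 2 bins overlap 7 protein-coding genes and stood at -7.11, -6.94 and -3.55. mom-2, the gene of the Wnt signal that acts on EMS, stood at -2.13, -2.08 and -4.45 and was not called without replicate 3 (-2.11, adjusted p = 0.0961). par-1, a kinase gene of embryonic polarity, stood at -0.93, -2.51 and -2.70, and was not called without replicate 2 (-1.81, adjusted p = 0.0726) or 3 (-1.72, adjusted p = 0.0862).

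Of 7 listed actin, muscle and cytoskeleton genes 5 were depleted and 1 enriched, where 15 and 2 of the list's 23 were over the genome. The enriched member was ttn-1. The actin genes act-1, act-2 and act-3 lie together at chrV:11071690-11082415 and stood at -5.42 ± 1.58, -7.31 ± 0.47 and -4.56 ± 0.39 (SD, n = 3 each). Their sequences are near copies, so the split of reads among them is uncertain. unc-70, the beta-spectrin gene, stood at -3.04 ± 1.19 and was not called without replicate 2. myo-3, the gene of a myosin of body wall muscle, stood at -2.32 ± 1.25 and was not called without replicate 1 or 2. unc-68, the ryanodine receptor gene, stood at 0.47 ± 0.86 and was not called.

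All 5 germline and meiosis genes of the list were depleted, where 10 of the list's 15 were over the genome. her-1, a sex-determination gene, stood at -3.83 ± 0.75, him-5, a gene of X recombination, at -2.98 ± 0.39, and mes-4, a germline histone methyltransferase gene, at -3.0001 ± 0.81 (SD, n = 3 each). spn-4 (-2.49 ± 1.04) and pos-1 (-2.40 ± 1.05), both genes of maternal RNA-binding proteins, were not called without replicate 2, nor spn-4 without replicate 1, nor pos-1 without replicate 3. The histone deacetylase gene hda-1 stood at -3.82 ± 0.84, and the reference gene pmp-3 at -2.78 ± 1.32, not called without replicate 3. Of 3 epidermal genes dpy-11 (-3.77 ± 0.62) and the collagen gene lon-3 (-2.12 ± 1.06) were depleted, the latter not called without replicate 2 or 3, and sqt-3 was at 0.77 ± 1.10. Over the genome 7 of the 11 listed epidermal genes were depleted.

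Neuronal genes were mixed, with 2 of 9 enriched, 1 depleted and a median of 0.48. Over the genome 6 of the 18 listed were enriched and 2 depleted. gcy-20, a guanylyl cyclase gene, stood at 3.65, 4.11 and 3.40, and mec-1, an extracellular matrix gene of touch neurons, at 2.90, 1.89 and 2.46. unc-76, a gene of axon growth, stood at -5.69, -3.67 and -4.28. The other 6 were not called, among them the synaptic gene snb-1 at 0.26, -4.08 and -3.48, which was called without replicate 1 (-3.78, adjusted p = 0.0185). odr-2, unc-41, egl-3 and ric-4 had means between 0.22 and 1.48, and unc-42 stood at -0.83 ± 1.41.

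Outside protein-coding genes, the classes of the centre also differed. The 284 measured pseudogenes had a median of 2.39 and the 105 piRNA genes one of 1.51, against 2.72 and 2.89 over the genome. The 36 snoRNA genes had a median of -5.36, against -3.61 over the genome. The 36 tRNA genes stood at -0.24, against -1.78 over the genome, and the former is nearer to 0 than the 0.26 by which total-read scaling raises gene ratios. Replicate medians of the pseudogenes were 2.45, 2.05 and 2.02 and of the snoRNA genes -5.50, -5.21 and -5.36, each on 1 side of 0. Small genes share their GATC sites with neighbours or host genes, so these values describe the stretch around them.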

How the data were processed

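DamID libraries of embryos, 3 with Dam::EMR-1 and 3 with GFP::Dam, were grouped and numbered by their titles. The authors deposited tables of GATC sites and of 2-, 10- and 100-kb bins that hold, per the file headers, a log2 ratio for each replicate number, the raw read count summed over libraries, the authors' mean log2 value and an adjusted p-value. Per the submitters' processing notes the build is ce11 and DESeq2 was used, with no role or version; the aligner is not given in the sources used here. The values of the deposited log2 ratio fit log2 of (reads + 1) over (reads + 1) less a constant per column, and no listed entry has fewer than 10 reads. Per-sample columns left unused: 0.

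Whole reads per library were recovered from the deposited ratios and read counts (log2 tolerance 4e-12), uniquely for 96.3% of 10-kb bins and for 98.7% after wider bins settled further ones. The tests took the 3 ratios in limma 3.58.1 (intercept only, variance trend on log2 reads, robust, Benjamini-Hochberg, two-sided), fitted to whole tables with at least 60 reads per entry. Window, neighbour, segment and content tables were fitted with limma without a trend. edgeR was planned for counts, but the tables hold ratios; edgeR 4.0.16 and DESeq2 1.42.0 ran on recovered counts as alternatives. The bin and gene fits were tested on simulated data. Library comparisons used exact permutation tests. Bounds of the other centres are those of the genetic map, rounded to 10 kb. A gene's ratio averages the GATC sites from 500 bp before it to 500 bp after it, with coordinates from a RefSeq gene table of WBcel235, which has the chromosome lengths of ce11. Domains are runs of at least 2 bins.

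The members, lists and tests were chosen with earlier results of these data known. Genes named are the 10 at either extreme (called, replicates of 1 sign, reads above the genome's median gene), up to 4 members of each list and up to 2 of each family, and the contents of the longest domains; further members of short lists and subfamily ranges were named after their values were seen. Neighbouring windows, gene-content contrasts and the fits without chemoreceptor bins or the most-read bins were added after seeing the data. Alternatives covered the read minimum, total-read scaling, pseudocounts of 0.1 and 5, the threshold, the replicate block, segment bounds, bin width and each replicate or library left out.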

Additional observations from a re-analysis of the deposited data

How the results depend on the processing

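Of 250 values of the main comparisons under alternatives, 220 kept their direction and their side of the threshold, or stayed within 1.5 times for counts. With an adjusted p of 0.01, the centre had 125 enriched and 153 depleted 10-kb bins, 43 and 181 2-kb bins and 421 enriched genes. Leaving out each replicate gave 157 to 207 enriched 10-kb bins, 164 to 200 enriched and 333 to 402 depleted 2-kb bins, 0.32 to 0.49 for the V centre minus the IV centre, 0.63 to 0.66 minus the X centre, and -0.46 to -0.16 and -0.86 to -0.41 for the chemoreceptor contrast against the centres of II and IV. The V centre minus the IV centre was 0.37 with no read minimum (adjusted p = 0.0548) and 0.35 with equal segments (adjusted p = 0.0624) in limma. Summed reads turned the differences to III and IV to -0.058 and -0.027. Without bins holding a chemoreceptor gene, the differences to IV and X were 0.070 and 0.11, and the gene number contrast turned to -0.34, its difference to the left arm to 0.27 and that to X to -0.066. Total-read scaling left 1 window called lower and put the windows at -0.59, -0.49 and -0.39 at 0.012, 0.11 and 0.22. The step from the fourth to the fifth window ranged from -0.088 to 0.23 with a replicate left out, and unc-68 from -0.0094 to 0.83. The cause of these changes was not tested, except that a stricter threshold lowers counts by construction. With a replicate left out the counts of bins fell, but some single results were newly called, among them the third window and snb-1.

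Libraries of the same number did not deviate together (r = -0.003, 0.011 and 0.0072 per pair). Such correlations cannot tell whether these libraries shared a culture or batch. The ratios and the main tests still take libraries of the same number together. Without the replicate block, limma called 476 enriched and 383 depleted genes among the fewer genes with known reads, and 319 and 296 10-kb bins; the block in edgeR moved no count of 10-kb bins by over 1.5 times. Replicates on both sides of 0 occurred in a gene with few reads (end-3, 297) and in another with many (unc-68, 32030). Whether depth goes with such disagreement was not tested over all genes.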
